A study of Mus musculus with 4 samples.

Results

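The genes described here are the axon guidance ligands and receptors: semaphorins and their plexin receptors, Slits and their Robo receptors, netrins and their Unc5 receptors, and ephrins and their Eph receptors. They were chosen by name from the gene list of the libraries, which gave 65 members of 31053 listed genes. The members are 7 secreted class 3 semaphorins, 13 membrane semaphorins, 9 plexins, 3 Slits, 4 Robos, 3 netrins (Ntn1, Ntn4 and Ntn5), 4 Unc5 receptors, 5 ephrin-A ligands, 9 EphA receptors, 3 ephrin-B ligands and 5 EphB receptors. The rule uses names only.

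The samples are cells of embryonic day 10.5 mice, sorted as positive for CD31, a protein on the surface of endothelium, and negative for CD45, which marks blood cells. Their source is the AGM (aorta-gonad-mesonephros), the part of the embryo around the dorsal aorta. There were 2 libraries of miR-223-/- embryos (KO), which lack the microRNA miR-223, and 2 of age-matched wild-type embryos (WT). The labels name no strain and do not say how many embryos a library pooled. P-values of KO against WT therefore rest only on how far libraries of a group differ, and part of that may be technical. Those of class comparisons, fitted with library as a block, rest on how far the class difference varies over the 4 libraries. The mature microRNA was not analysed here, so the genotype of each library rests on its label.

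Of 31521 barcodes, 20836 passed filters on genes and mitochondrial RNA and 19178 cells remained once predicted doublets were removed, with 4127 and 5877 cells in KO replicates 1 and 2 and 2297 and 6877 cells in WT replicates 1 and 2. Median depth lay between 18258 and 30214 unique molecular identifiers (UMIs, tags that mark single captured RNA molecules) per cell in the 4 libraries, with the highest in WT replicate 1. Pairs of libraries shared 8 to 28 cell barcodes, at most 0.327% of the smaller library. Clusters were built without the 65 members and without the co-receptor and effector genes listed with them, so that no member helped to define a class, although the clusters rest on other genes of the same cells. Endothelial-like clusters held 15507 cells. Arterial-like cells were 278 and 436 in the KO libraries and 94 and 537 in the WT libraries, in clusters 10 and 12. Cluster 10 was led by Gja5 and Tmem100 and cluster 12 by Htra1, Pde3a and Nkx2-3. A cluster of 1223 cells with the arterial markers raised more weakly was kept apart as weak arterial-like. Cluster 7, with 194 and 361 cells in KO and 125 and 386 in WT, had 5 of 7 venous markers raised. Its leading genes hold none of those markers and do hold Prox1, from the sinusoidal or lymphatic list, so it is given below as cluster 7, the most venous-like cluster. Sprouting-like cells (3371 cells, led by Kcne3), neural plexus endothelial-like cells (2773 cells, led by Foxq1, Tdrp and Spock2), mesenchymal-like cells (1359 cells) and neural-like cells (367 cells) make up the other classes described. Genes that mark S phase lead 1 of the 2 sprouting-like clusters beside Kcne3. Of 9 sprouting markers, 4 were raised in that cluster and 3 in the other. The 9 markers summed to 488 CPM on average in sprouting-like cells and 448 CPM in weak arterial-like cells.

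Guidance molecules were first described in growing axons, which they attract or repel, and many serve the same purpose in vessels. Ephrin-B2 on arterial cells and its receptor EphB4 on venous cells meet at cell contacts and signal in both directions, and embryos that lack either fail to remodel their first vessels. Class 3 semaphorins act through neuropilins and plexins, Slits through Robos and netrins through Dcc, neogenin and Unc5 receptors, and several of these receptors are known to restrain sprouting of endothelial cells.

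Most members were highest outside the vascular classes. Only 23 of the 65 reached 5 CPM (UMIs of the gene per 1000000 UMIs of the class) on average over the 4 libraries in endothelial-like cells. By mean CPM, 22 members were highest in mesenchymal-like cells, 20 in neural-like cells and 18 in a vascular class, and the rest in primordial germ cell-like or hemogenic-like cells. Of the 18, the arterial-like class held 8: Sema3f, Sema3g, Sema7a, Plxna2, Plxna4, Unc5b, Efna1 and Efnb2. Weak arterial-like cells held Sema6d, Plxnd1, Robo4 and Epha2, and the small endocardial-like class held Sema6c, Plxnc1 and Ephb4. For Sema6c and Ephb4 the top class lay above the next in only 2 of the 4 libraries, and for Ephb4 that next class was cluster 7. No member had its highest mean in cluster 7.

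**Figure D1:**
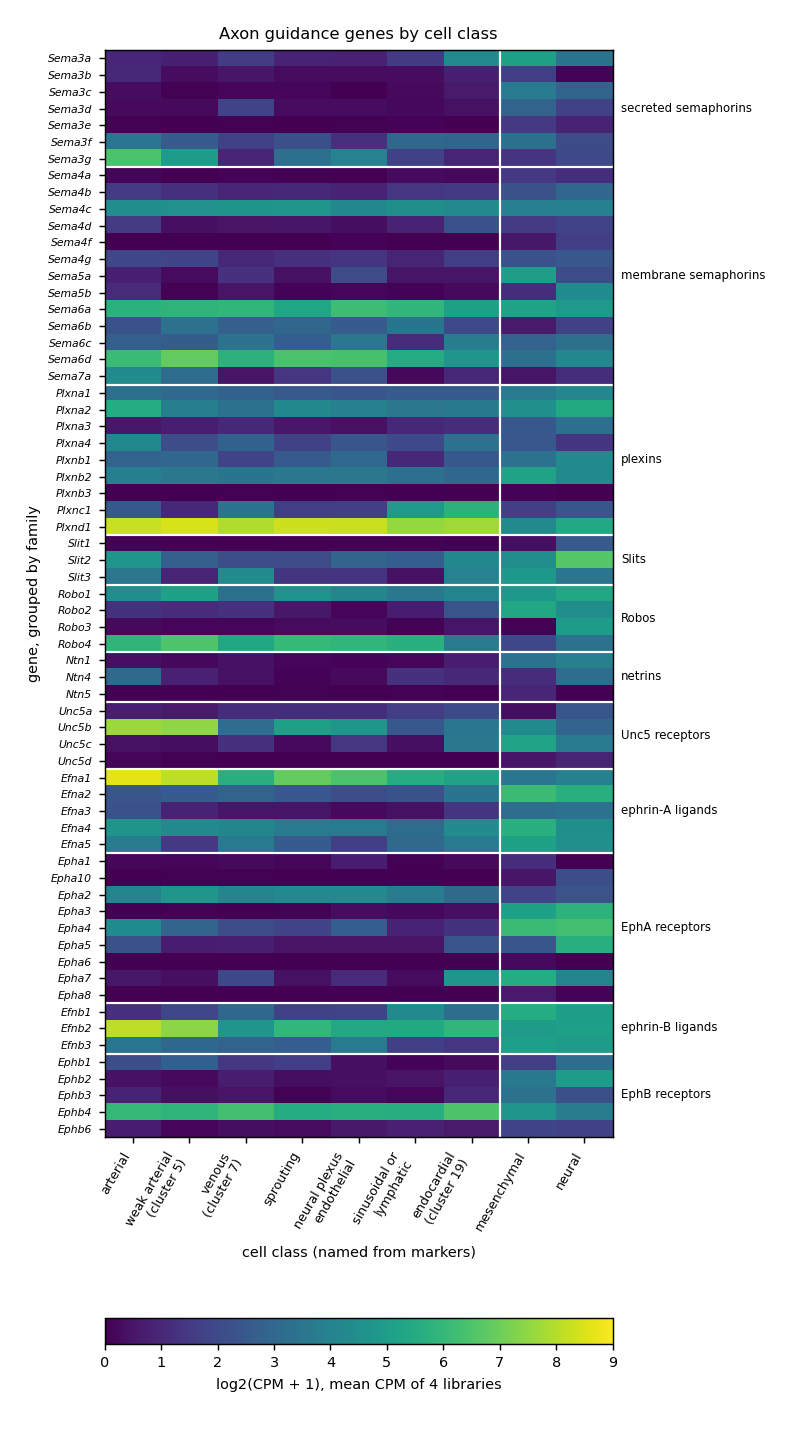
Level of each of the 65 members (rows, grouped by family) in each of 9 cell classes (columns), as the colour-coded log2 of the mean CPM of the 4 libraries plus the pseudocount named on the colour bar. Along its row, Plxnd1 is brighter in every vascular column than in the mesenchymal-like and neural-like ones, Efna1, Efnb2 and Unc5b are brightest in the arterial-like column, and most Eph receptors, Ntn1, Robo2 and Unc5c are brighter in the mesenchymal-like and neural-like columns than in the vascular ones.

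The ligand ephrin-B2 (Efnb2) separated arterial-like cells from cluster 7 in every library. Arterial-like cells held 240.4 and 257 CPM of Efnb2 in KO replicates 1 and 2, and 294 and 316 CPM in WT replicates 1 and 2. Cluster 7 held 20.6 and 25.5 CPM in the KO libraries and 24.0 and 29.6 CPM in the WT libraries. The groups do not overlap. The log2 difference, arterial-like minus cluster 7, was 3.31 ± 0.06 (SE, 4 libraries in each class, library as block; edgeR quasi-likelihood test with Benjamini-Hochberg adjustment over all genes, adjusted p = 9.74e-35). Between these ends lay weak arterial-like cells with 174 ± 16.6 CPM, sprouting-like cells with 60.7 ± 8.87 CPM, sinusoidal or lymphatic-like cells with 43.7 ± 4.33 CPM, neural plexus endothelial-like cells with 41.8 ± 3.54 CPM, neural-like cells with 33.2 ± 10.5 CPM and mesenchymal-like cells with 29.9 ± 4.33 CPM (SD, n = 4 libraries each). Means of sinusoidal-like and neural plexus-like cells, and of neural-like and mesenchymal-like cells, differ by less than their spread over libraries. These pairs were not compared within libraries.

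Its receptor EphB4 (Ephb4) was graded far less. Arterial-like cells held 54.2 and 59.4 CPM of Ephb4 in KO and 74.5 and 60.2 CPM in WT. Cluster 7 held 69.7 and 72.2 CPM in KO and 90.1 and 71.3 CPM in WT. Within each library the arterial-like value was the lower, but the ranges of the classes overlap because WT replicate 1 was high throughout. The log2 difference was -0.43 ± 0.07 (edgeR, adjusted p = 6.72e-07). Every endothelial class held Ephb4, between 46.7 ± 9.73 CPM in sprouting-like cells and 88.8 ± 42.1 CPM in endocardial-like cells, whose smallest library had 15 cells. Means of sprouting-like, sinusoidal-like, neural plexus-like and weak arterial-like cells were within their spread of one another, a spread that includes library differences. These classes were not compared in pairs within libraries. Mesenchymal-like cells held 24.9 ± 4.39 CPM and neural-like cells 13.1 ± 6.47 CPM (SD, n = 4).

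The stretches before the start sites of these genes, and of the netrin receptor gene Unc5b that follows, are shown because Efnb2 and Ephb4 are the ligand and receptor pair compared above and Unc5b differs in the same direction as Efnb2. They are the 250 bases upstream of the RefSeq start on mouse build GRCm38.p6, read 5′ to 3′ on the gene's strand. Efnb2 is at chr8:8661243-8661492 on the minus strand, Unc5b at chr10:60831582-60831831 on the minus strand and Ephb4 at chr5:137349859-137350108 on the plus strand. Capitals mark the matches to any of 4 short motifs searched on both strands. The motifs were the Notch effector core TGGGAA, the ETS core CCGGAA, the SOX core ACAAT and the nuclear receptor half-site AGGTCA, and matches of different motifs may overlap.
Efnb2: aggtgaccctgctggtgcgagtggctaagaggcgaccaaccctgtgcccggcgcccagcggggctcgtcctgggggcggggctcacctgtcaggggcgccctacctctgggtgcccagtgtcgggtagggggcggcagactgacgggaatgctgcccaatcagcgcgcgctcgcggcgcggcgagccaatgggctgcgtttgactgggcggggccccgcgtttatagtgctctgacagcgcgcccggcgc
Unc5b: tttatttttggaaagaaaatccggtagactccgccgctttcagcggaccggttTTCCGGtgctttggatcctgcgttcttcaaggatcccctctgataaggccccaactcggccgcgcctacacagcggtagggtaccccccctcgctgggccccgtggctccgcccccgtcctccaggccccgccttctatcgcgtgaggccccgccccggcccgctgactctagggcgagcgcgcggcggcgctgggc
Ephb4: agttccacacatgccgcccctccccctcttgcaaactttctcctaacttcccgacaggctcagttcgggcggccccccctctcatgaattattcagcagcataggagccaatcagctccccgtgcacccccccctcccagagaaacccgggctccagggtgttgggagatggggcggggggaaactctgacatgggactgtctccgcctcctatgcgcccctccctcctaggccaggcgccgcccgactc
The single match is 1 ETS core in Unc5b, and the other 2 windows hold none of the 4 motifs. Among 32851 RefSeq promoters of the same window, 21.6% hold TGGGAA, 12.03% CCGGAA, 27.7% ACAAT and 14.02% AGGTCA. Among 72 promoters matched to 56 of the members, the shares were 18.1%, 9.72%, 18.1% and 13.9%. G and C make up 72.0% of the Efnb2 window, 66.8% of the Unc5b window and 64.0% of the Ephb4 window.

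Over all members, 40 could be tested between arterial-like cells and cluster 7, and 24 were higher and 11 lower in arterial-like cells. The other 25 had too few UMIs. Among all 11453 genes tested, 62.4% passed, 31.1% higher and 31.3% lower. The median log2 difference was 0.46 over the tested members and 0.01 over all genes. Without the scaling by TMM, a trimmed mean of fold changes that centres the genes, the median of all genes would lie 0.14 higher, so differences of that size rest on the scaling. Sums of arterial-like cells also came from shallower cells, with median depths of 12353.5 and 13101 UMIs in KO and 19167.5 and 11366 in WT, against 18734.5 and 18856 UMIs in KO and 29104 and 18596 in WT in cluster 7.

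Unc5b, a netrin receptor found on arterial and tip cells, held 183 and 192 CPM in KO and 207 and 215 CPM in WT in arterial-like cells. In cluster 7 it held 3.51 and 8.13 CPM in KO and 13.7 and 8.58 CPM in WT. The log2 difference was 4.43 ± 0.15 (edgeR, adjusted p = 2.52e-09). Weak arterial-like cells, at 181 ± 14.04 CPM and with Unc5b among the 10 genes that lead their cluster, overlapped the range of arterial-like cells. Levels were 33.9 ± 4.76 CPM in sprouting-like cells, 26.0 ± 2.45 CPM in neural plexus-like cells and 4.57 ± 1.08 CPM in sinusoidal-like cells (SD, n = 4). Netrin-4 (Ntn4), a laminin-related netrin of basement membranes, was higher as well by 4.22 ± 0.35, at 2.70 and 10.8 CPM in KO and 6.69 and 10.2 CPM in WT in arterial-like cells and under 0.83 CPM in every library of cluster 7. Netrin-1 (Ntn1), the classical axon attractant, had too few UMIs in both classes for a test, at 0.297 ± 0.263 CPM in arterial-like cells and 0.348 ± 0.265 CPM in cluster 7.

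Sema3g, a secreted semaphorin known from arterial endothelium, gave the widest separation. Of 4 secreted semaphorins tested 2 were higher and 1 was lower in arterial-like cells, and of 8 membrane semaphorins 4 were higher and 4 lower. For Sema3g, arterial-like cells held 84.1 and 83.2 CPM in KO and 82.6 and 99.3 CPM in WT, and cluster 7 held 0.501 and 0.964 CPM in KO and 0.734 and 1.43 CPM in WT. The log2 difference was 6.30 ± 0.15 (edgeR, adjusted p = 8.65e-32). Sema3f, a neuropilin-2 ligand, was higher by 2.02 ± 0.23, with 10.7 ± 4.05 CPM in arterial-like cells and 2.35 ± 1.06 CPM in cluster 7. Sema7a, a membrane-anchored semaphorin, was higher by 5.31 ± 0.26. In the opposite direction, Sema3d had 2 UMIs in all arterial-like cells and 61 in cluster 7, a ratio of UMIs per total of 0.0410 (exact 95% interval 0.00486 to 0.155, counting error only). Sema6a, a membrane semaphorin, and its relative Sema6c were lower in arterial-like cells by -0.34 ± 0.07 and -0.76 ± 0.19. The Sema6a difference was -0.08 with adjusted p = 0.28 when the clusters were built with the members allowed in.

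Of the plexins, the receptors of semaphorins, 5 of 7 tested were higher and 1 lower in arterial-like cells. Plxna2 was higher by 2.15 ± 0.11, with 51.5 and 53.0 CPM in KO and 41.6 and 40.3 CPM in WT, against 8.52 and 9.51 CPM in KO and 8.81 and 10.4 CPM in WT in cluster 7. Plxna4 was higher by 1.39 ± 0.15. Plxnc1, the receptor of Sema7a, was the lower plexin, by -1.29 ± 0.18, so ligand and receptor stood on opposite sides. Plxnd1, which binds Sema3e and is known for its place in the endothelium, held 299 ± 38.8 CPM in arterial-like cells and 243 ± 33.8 CPM in cluster 7. Its difference of 0.15 ± 0.04 (adjusted p = 0.00324) is about as large as the shift from scaling, and in 1 fit over all classes it was 0.19 with adjusted p = 0.14.

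The 2 Slit ligands that could be tested went in opposite directions. Slit2 held 33.2 and 23.4 CPM in KO and 22.5 and 23.4 CPM in WT in arterial-like cells, against 3.01 and 4.41 CPM in KO and 2.94 and 3.64 CPM in WT in cluster 7 (log2 difference 2.63 ± 0.16, adjusted p = 4.63e-18). Slit3 held 15.9 and 9.46 CPM in KO and 7.64 and 10.5 CPM in WT in arterial-like cells, against 21.3 and 21.6 CPM in KO and 17.9 and 16.4 CPM in WT in cluster 7 (log2 difference -0.97 ± 0.13, adjusted p = 5.44e-08). Neither gene has overlapping groups. Robo4, the Robo found on endothelial cells, was higher in arterial-like cells by 0.43 ± 0.08, with 42.3 and 60.9 CPM in KO and 63.5 and 67.5 CPM in WT against 33.1 and 39.1 CPM in KO and 48.9 and 39.9 CPM in WT in cluster 7. These ranges overlap, although the difference has the same sign within each library. With libraries pooled, Slit3 was at 5.02 CPM in cluster 10 and 19.6 CPM in cluster 12, against 19.1 CPM in cluster 7. Robo4 was at 81.2 CPM in cluster 10 and 28.4 CPM in cluster 12, against 40.1 CPM in cluster 7. For Slit3 and Robo4 the difference of the whole arterial-like class thus did not hold in cluster 12.

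Ephrin-A1 (Efna1), an A-type ligand known from vessels, held 375 and 384 CPM in KO and 411 and 397 CPM in WT in arterial-like cells, against 45.4 and 52.4 CPM in KO and 54.1 and 49.1 CPM in WT in cluster 7 (log2 difference 2.82 ± 0.05, adjusted p = 3.31e-35). Efna2 was lower by -0.75 ± 0.22, a call lost without KO replicate 2, where the difference was -0.63 with adjusted p = 0.050. Of 5 ephrin-A ligands 3 were higher and 1 was lower, and of 4 EphA receptors 2 were higher and 1 was lower. Epha4, which binds ephrins of both types, was higher by 2.44 ± 0.16, and Epha7 was lower by -2.53 ± 0.48 on 9 UMIs in arterial-like cells and 62 in cluster 7. Efnb1, another ephrin-B ligand, ran against Efnb2 and was lower by -2.27 ± 0.28.

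**Figure D2:**
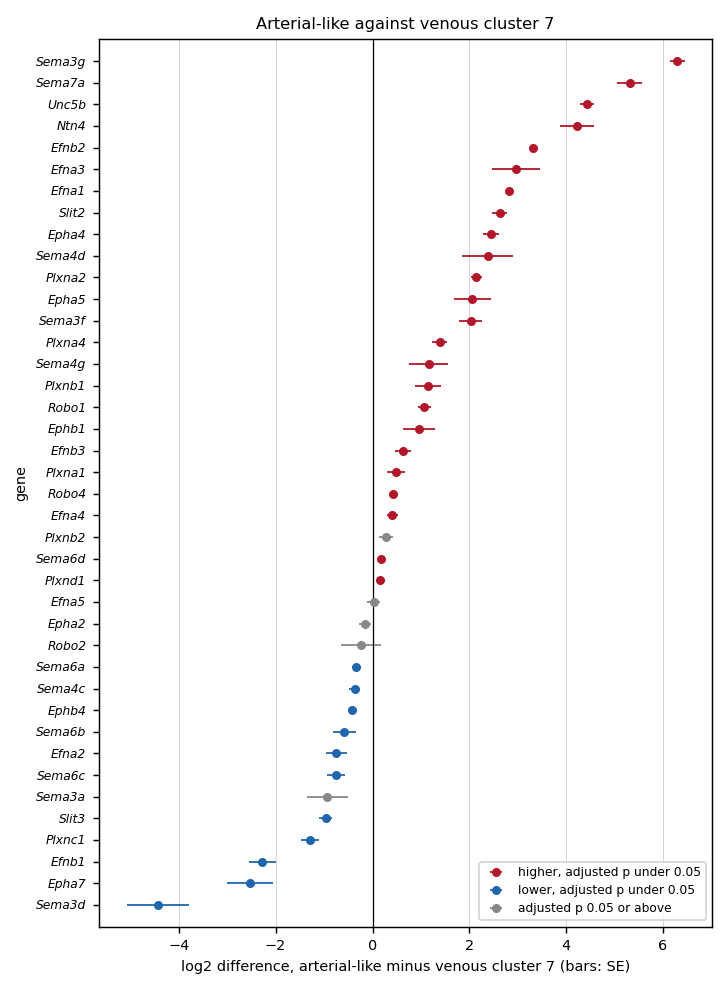
Log2 difference with its SE (horizontal axis) between arterial-like cells and cluster 7 for the 40 members tested (rows), from sums of 4 libraries in each class with library as block. Sema3g at 6.30, Sema7a at 5.31, Unc5b at 4.43, Ntn4 at 4.22 and Efnb2 at 3.31 stand at the arterial end, and Sema3d, Epha7 and Efnb1 at the other.

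Some markers of other cell types differed between the same classes. The list of 14 mesenchymal markers summed to 31.8 and 23.1 CPM in KO and 23.9 and 28.3 CPM in WT in arterial-like cells, against 35.3 and 16.1 CPM in KO and 24.5 and 13.5 CPM in WT in cluster 7, and to between 1580 and 2200 CPM in mesenchymal-like cells. The 14 neural markers summed to 741 and 1022 CPM in KO and 819 and 1065 CPM in WT in arterial-like cells and to between 185 and 262 CPM in cluster 7. Nearly all of that is Stmn2, and Dcx, Neurog2, Sox10, Nhlh1 and Sox1 were among the markers with no UMI in arterial-like cells. The 8 markers of hemogenic or blood progenitor cells summed to 110 and 108 CPM in KO and 147 and 92.0 CPM in WT in arterial-like cells and to between 12.1 and 14.8 CPM in cluster 7, with none of the 8 at 0 in either. The part of these markers in the differences was not tested.

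The share of cells with an Efnb2 UMI, which follows from the level per cell, had the same order. With each cell thinned to 5000 UMIs and shallower cells left out (4 and 10 cells in KO, 3 and 11 in WT), 68.2% and 69.2% of arterial-like cells in KO and 71.4% and 75.3% in WT had an Efnb2 UMI. In cluster 7, where 0 and 5 cells were left out in KO and 1 and 3 in WT, the shares were 12.4% and 14.04% in KO and 11.3% and 13.1% in WT. Without thinning they were 92.1% and 91.5% in KO and 97.9% and 92.2% in WT in arterial-like cells, against 28.4% and 37.4% in KO and 44.8% and 35.8% in WT in cluster 7. Primordial germ cell-like cells are not endothelial and are given for comparison. At median depths of 36470 to 57604 UMIs, their thinned share was at most 3.41% in a library. Without thinning it was between 9.52% and 24.4%, below the share of cluster 7 within each library. These cells are deeper than those of cluster 7, so equal thinning need not leave equal amounts of RNA from outside the cell. Mesenchymal-like cells, also not endothelial, had thinned shares between 11.3% and 14.5%, which overlap those of cluster 7. The part of RNA from outside the cell in the share of cluster 7 was not tested. For Ephb4 the thinned shares were 20.1% and 27.9% in KO and 33.0% and 27.6% in WT in arterial-like cells, against 28.9% and 33.7% in KO and 40.3% and 30.03% in WT in cluster 7, with at most 6.38% in primordial germ cell-like cells. Cells with a UMI of both genes made up 15.7% and 19.95% of arterial-like cells in KO and 19.8% and 21.5% in WT. The products of the single shares are 13.7% and 19.3% in KO and 23.5% and 20.8% in WT.

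The 2 arterial-like clusters held some members at different levels. The members given were picked after their values were seen, and the comparison has no test. In cluster 12, the Htra1 and Nkx2-3 cluster, Slit3 averaged 19.6 ± 5.41 CPM and in cluster 10, the Gja5 cluster, 4.78 ± 2.65 CPM. Plxna2 averaged 77.7 ± 11.7 CPM in cluster 12 and 24.8 ± 4.10 CPM in cluster 10, and Efna5 20.5 ± 1.49 CPM in cluster 12 and 7.53 ± 0.729 CPM in cluster 10. For Slit3, Plxna2 and Efna5 the 4 libraries of cluster 12 all lie above the 4 of cluster 10. The reverse held for Unc5b, with 128 ± 20.7 CPM in cluster 12 and 249 ± 26.6 CPM in cluster 10, for Robo4, with 28.7 ± 3.59 CPM in cluster 12 and 79.4 ± 16.8 CPM in cluster 10, and for Sema7a, with 10.7 ± 1.10 CPM in cluster 12 and 25.7 ± 5.94 CPM in cluster 10 (SD, n = 4 each). Efnb2 and Sema3g overlap between the clusters, with 297 ± 39.0 CPM of Efnb2 in cluster 12 and 262 ± 33.0 CPM in cluster 10. Cluster 12 held as few as 38 cells in a library (WT replicate 1).

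**Figure D3:**
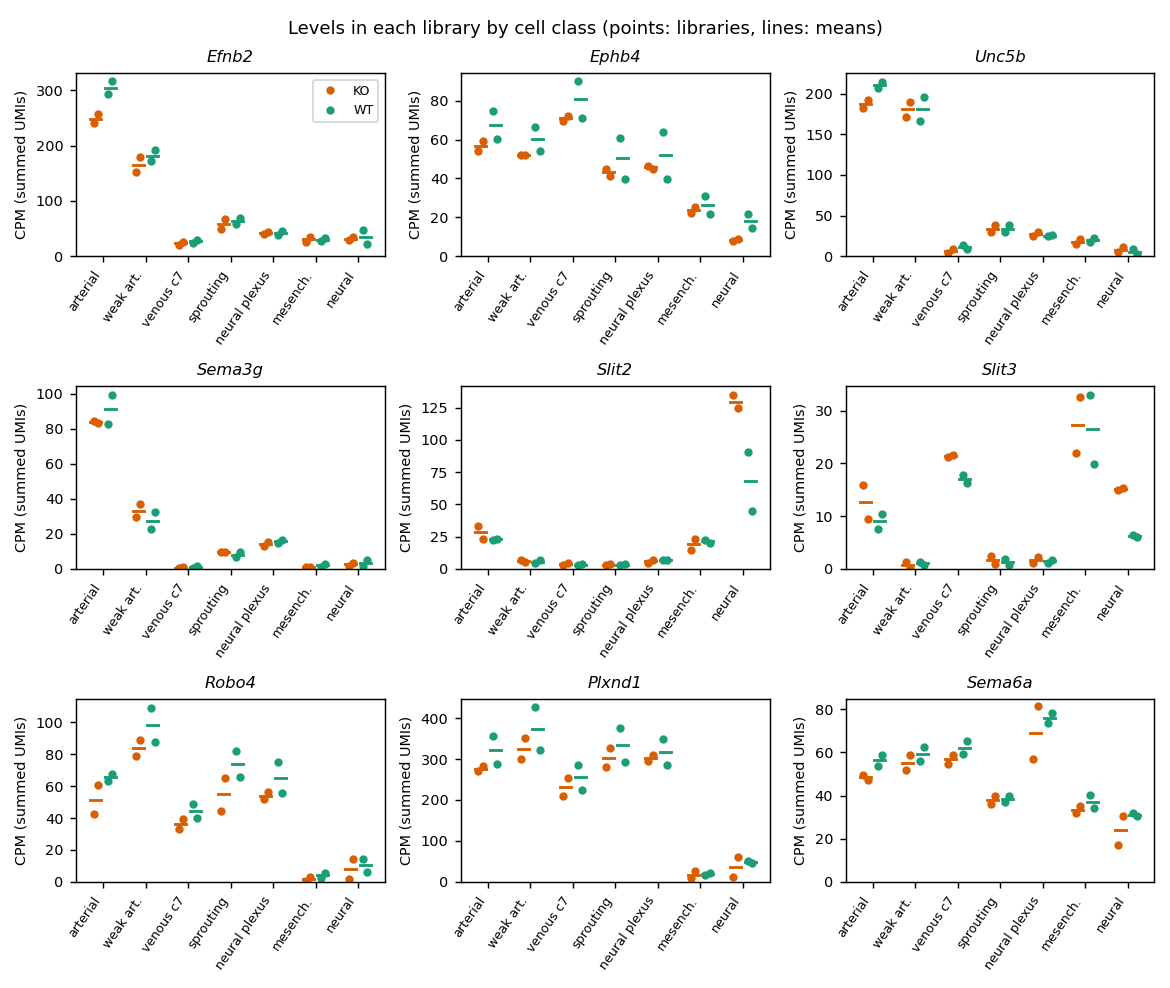
CPM of 9 members (1 panel each, vertical axis starting at 0) in 7 cell classes (horizontal axis), with a point for each library, KO left of WT, and a bar at the mean of each genotype. Efnb2, Unc5b and Sema3g peak in arterial-like cells, Ephb4 and Sema6a are spread over all endothelial classes, and Slit3 is highest in mesenchymal-like cells and cluster 7, with arterial-like and neural-like cells lower, at means of 10.9 and 10.7 CPM.

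Set against all other endothelial-like cells, 26 of 51 tested members were higher and 14 lower in arterial-like cells, where 65.3% of all genes tested passed, 30.8% higher and 34.5% lower. Sema3g, Sema7a, Ntn4, Unc5b, Efnb2, Slit2, Epha4 and Plxna4 were higher by log2 differences between 2.05 and 4.51. Slit3 was higher here by 1.36 ± 0.15, with 10.9 ± 3.55 CPM in arterial-like cells and 3.78 CPM in the other endothelial-like cells, although it was lower than in cluster 7. Ephb4 did not pass (0.01 ± 0.06, adjusted p = 0.90). Without KO replicate 2, 7 members were lower in place of 14.

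Against the other endothelial-like cells, cluster 7 had 15 of 50 tested members higher and 13 lower, with 37.7% of all genes passing, 17.3% higher and 20.4% lower. Slit3 (2.67 ± 0.11, adjusted p = 1.19e-27) and Sema3d (2.62 ± 0.29) were the furthest raised, with 19.3 CPM of Slit3 in cluster 7 and 3.09 CPM in the rest. Ephb4 was higher by 0.52 ± 0.05 (adjusted p = 6.42e-14), and Efna5, Plxnc1, Efnb1, Efna2 and Epha7 were higher by 0.55 to 1.47. Sema3g, Sema7a, Unc5b, Efnb2 and Efna1 were lower by -1.23 to -3.78. Robo1, a Slit receptor, was lower by -1.06 ± 0.10 and Robo4 by -0.56 ± 0.05.

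In sprouting-like cells 10 of 49 tested members were higher and 24 lower, where 45.4% of all genes passed, 25.3% higher and 20.2% lower. The higher members differed by at most 0.57. Robo1 was higher by 0.57 ± 0.05, with 23.5 CPM in sprouting-like cells and 16.8 CPM in the other endothelial-like cells. Sema6d, Sema4c, Plxnd1, Plxnb2 and Epha2 were higher by 0.24 to 0.35, and Robo4 by 0.26 ± 0.04. Weak arterial-like cells held more than sprouting-like cells of Robo1 (34.5 CPM), Sema6d (114 against 84.8 CPM) and Plxnd1 (350 against 319 CPM). The same held for Robo4 (91.1 against 64.5 CPM) and Epha2 (25.2 against 18.7 CPM), but not for Sema4c or Plxnb2. Cluster 4, an endothelial-like cluster of no named class, is led by Prc1 and Nusap1. With libraries pooled, it held 24.1 CPM of Robo1, against 25.1 and 23.7 CPM in sprouting-like clusters 2 and 3. For Robo4 it held 69.6 against 62.5 and 67.7 CPM, and for Sema6d 83.9 against 80.3 and 95.9 CPM. Plxnb2 was lower in cluster 4, at 9.24 against 11.1 and 10.9 CPM. Efnb2 did not pass (-0.07 ± 0.03, adjusted p = 0.069). It passed without KO replicate 2, at -0.12 with adjusted p = 0.012, and had the opposite sign with doublets kept (0.02, adjusted p = 0.66). Slit2 and Slit3 were both lower, by -0.79 ± 0.10 and -1.75 ± 0.19, as was Plxnc1 by -1.67 ± 0.11. Sema3g and Unc5b were lower by -0.58 ± 0.06 and -0.28 ± 0.04 against the other cells pooled, but were higher, by 0.49 and 0.44 (adjusted p = 0.00044 and 6.38e-05), when 1 fit gave each of the other endothelial classes equal weight. The Unc5b call was lost with doublets kept (-0.03, adjusted p = 0.64).

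Neural plexus endothelial-like cells had 13 of 51 tested members higher and 24 lower, and 43% of all genes passed, 19.9% higher and 23.1% lower. All 5 ephrin-A ligands were lower, Efna1 by -0.47 ± 0.03 and Efna5 by -1.59 ± 0.12. Sema5a, a membrane semaphorin with thrombospondin repeats, was higher by 2.51 ± 0.19, with 3.45 and 3.77 CPM in KO and 1.65 and 3.81 CPM in WT, against 0.595 CPM in the other endothelial-like cells. Efnb3 was higher by 1.11 ± 0.08 and Sema6c by 0.86 ± 0.08. Sema6a was higher by 0.63 ± 0.05 (adjusted p = 7.42e-08), with 56.8 and 81.6 CPM in KO and 73.8 and 78.4 CPM in WT. Within the class it averaged 102 ± 13.4 CPM in cluster 9, led by Spock2 and Mfsd2a, and 62.6 ± 9.60 CPM in cluster 1, led by Car2 and Tdrp. The 4 libraries of cluster 9 all lie above those of cluster 1. Unc5b followed the same order, with 73.6 ± 3.84 CPM in cluster 9 and 9.75 ± 1.92 CPM in cluster 1, while the class as a whole was lower than the rest (-0.79 ± 0.05). In 1 fit over all classes that difference was -0.09 with adjusted p = 0.50. Efna1 was split within the class too, at 141 CPM in cluster 9 and 67.2 CPM in cluster 1 with libraries pooled. Its mean in endothelial-like cells was 114 CPM. So was Efnb2, at 86.4 CPM in cluster 9 and 27.6 CPM in cluster 1, with a mean of 65.8 CPM in endothelial-like cells. Slit2 was higher by 0.39 ± 0.11, a call lost without WT replicate 2 (0.37, adjusted p = 0.062). The Slit2 call was also lost in 1 fit over all classes, where the difference was 0.018 with adjusted p = 0.97. With clusters built with the members it was 0.24 (adjusted p = 0.061), and with doublets kept 0.26 (adjusted p = 0.061).

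**Figure D4:**
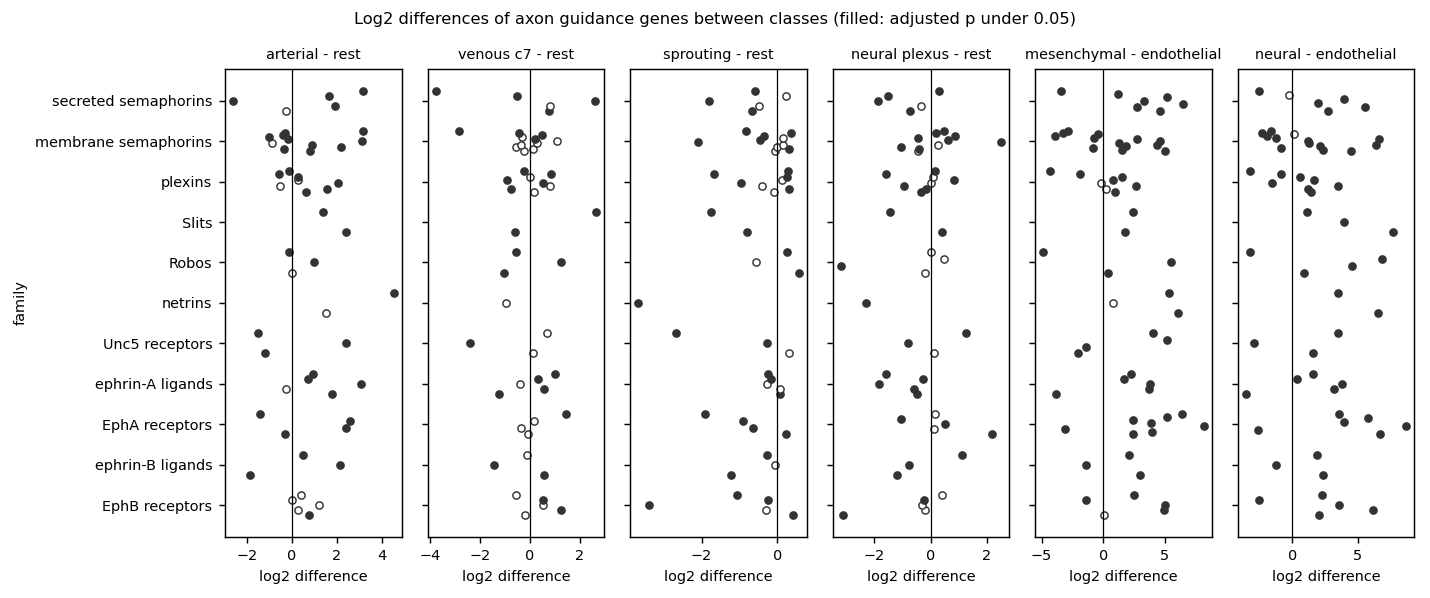
Log2 difference of every tested member (points, vertical axis by family) in 6 class comparisons (panels), filled where the adjusted p is under 0.05. Members of 1 family lie on both sides of 0 in most panels. Examples are Efnb2 and Efnb1 in the arterial-like panel and Slit2 and Slit3 in the cluster 7 panel, each against the other endothelial-like cells. EphA and EphB receptors lie mostly to the right in the mesenchymal-like and neural-like panels.

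Mesenchymal-like cells, present in all 4 libraries despite the sort, had 41 of 61 tested members higher and 16 lower than endothelial-like cells, and 72.9% of all genes passed, 35.3% higher and 37.5% lower. Their 12 pan-endothelial markers summed to 144 and 299 CPM in KO and 178 and 323 CPM in WT, against between 3649 and 4216 CPM in endothelial-like cells. Epha3, a receptor for ephrin-A ligands, held 24.1 and 43.1 CPM in KO and 43.1 and 27.8 CPM in WT in mesenchymal-like cells and at most 0.138 CPM in any library of endothelial-like cells (log2 difference 8.14 ± 0.19, adjusted p = 2.32e-13). Of 8 EphA receptors tested 7 were higher and of 5 ephrin-A ligands 4. Ntn1 held 11.2 and 8.85 CPM in KO and 9.07 and 8.77 CPM in WT and at most 0.171 CPM in endothelial-like cells. Sema3a, a repellent of axons, and Sema3c were higher by 4.59 ± 0.13 and 6.48 ± 0.25, and Robo2 by 5.51 ± 0.12. Robo4, Plxnd1, Sema3g, Sema6b, Sema6d and Epha2 were lower by -3.13 to -4.86.

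The mesenchymal-like clusters differed among themselves, given here as values with no test. Cluster 11, led by the limb genes Prrx1 and Shox2, held 51.9 ± 16.9 CPM of Robo2, cluster 15, led by Col1a1 and Postn, 41.5 ± 4.23 CPM, and cluster 16, led by Foxd1 and Pax1, 11.998 ± 5.41 CPM. Sema5a ran the other way, with 24.2 ± 5.50, 21.1 ± 6.17 and 55.4 ± 11.6 CPM in clusters 11, 15 and 16. Epha7 averaged 28.8 ± 8.02 CPM in cluster 11, 51.4 ± 15.5 CPM in cluster 15 and 77.1 ± 12.3 CPM in cluster 16. Ntn1 averaged 12.7 ± 1.75 CPM in cluster 11, 2.02 ± 0.359 CPM in cluster 15 and 10.7 ± 6.66 CPM in cluster 16 (SD, n = 4).

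Neural-like cells had 41 of 58 tested members higher and 15 lower than endothelial-like cells, and 59.6% of all genes passed, 26.4% higher and 33.2% lower. All 3 Slits were higher, Slit2 by 3.95 ± 0.37 (adjusted p = 0.00235), with 135 and 124 CPM in KO and 90.8 and 44.8 CPM in WT against 5.25 ± 0.684 CPM in endothelial-like cells. Epha3 and Epha5 were higher by 8.74 ± 0.32 and 5.77 ± 0.25, and Ephb2 by 6.21 ± 0.31, with 37.4 and 36.3 CPM in KO and 22.7 and 22.4 CPM in WT. Robo3, a receptor of crossing axons, was nearly confined to 1 of the 2 neural-like clusters. It averaged 70.0 ± 39.7 CPM in cluster 21, led by the neuronal genes Tubb3 and Nefm, and 0.604 ± 1.21 CPM in cluster 20, led by the progenitor genes Fabp7 and Hes5. Slit2 averaged 184 ± 99.1 CPM in cluster 21 and 37.0 ± 8.77 CPM in cluster 20. Ntn1 was on the other side, at 4.67 ± 2.57 CPM in cluster 21 and 20.8 ± 3.95 CPM in cluster 20. The neural-like class had 189 and 80 cells in KO and 38 and 60 in WT, and Robo3 and these cluster values were picked after they were seen.

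The co-receptors and effectors of the same pathways, a list of 48 genes that are no members, were counted in the same fits. Between arterial-like cells and cluster 7, 11 were higher and 14 lower of 39 tested, where 31.1% of all genes were higher and 31.3% lower. The neuropilins went in opposite directions. Nrp1, the co-receptor of Sema3a and of VEGF, held 784 and 738 CPM in KO and 758 and 791 CPM in WT in arterial-like cells, against 121 and 135 CPM in KO and 124 and 134 CPM in WT in cluster 7 (log2 difference 2.43 ± 0.04). Nrp2, which binds Sema3f and Sema3g, held 5.93 and 4.98 CPM in KO and 5.25 and 5.78 CPM in WT in arterial-like cells, against 231 and 284 CPM in KO and 259 and 298 CPM in WT in cluster 7 (log2 difference -5.78 ± 0.09). The ligands Sema3f and Sema3g were thus high in the class where Nrp2 was low. Neogenin (Neo1), a netrin receptor, was higher in arterial-like cells by 1.37 ± 0.11. Flrt2, a ligand of Unc5 receptors, was lower by -4.53 ± 0.10 where Unc5b was higher. The netrin receptor Dcc held 14.7 and 20.4 CPM in KO and 17.3 and 29.6 CPM in WT in neural-like cells and at most 0.046 CPM in endothelial-like cells. Rnd1, a protein that binds plexins, was higher by 5.04 ± 0.26. Of 47 listed genes tested in mesenchymal-like cells 20 were higher and 23 lower, where 72.9% of all genes passed, and of 46 in neural-like cells 19 were higher and 21 lower, where 59.6% passed.

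The genes whose level followed Efnb2 most closely over 40 points (10 classes in 4 libraries, 9678 genes compared) were Vegfc, Tspan2, Ccdc28b, Timm10b and Nedd9, with Pearson r of log2 CPM between 0.937 and 0.964. Vegfc is also 1 of the arterial markers that named the class. For Ephb4 they were Adcy4, Anxa2, Hspa12b, Nbdy and Adgra2, with r between 0.931 and 0.937. The points share libraries and depth, so these are descriptions and carry no p.

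miR-223 silences transcripts that pair with its seed, and its sites are shown because the genotype removes it. The mature miR-223-3p is encoded at chrX:96242884-96242905 on the plus strand of GRCm38.p6. The seed, bases 2 to 8, is in capitals, and in the 3′ UTR windows of GRCm38 the capitals mark the matching site, either 7 bases or 8 with the following A.
miR-223-3p: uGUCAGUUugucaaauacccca
Efna1: gaagccataatgtgcagatgAACTGACcg
Plxna2: cttgtttcttgcctgaatgcAACTGACAa
Plxnd1: catctctcacttgggctgggAACTGACAg
Robo2: tagtacatcatatgtatggtAACTGACAt
The sites are at chr3:89272113-89272119 on the minus strand for Efna1, chr1:194814067-194814074 on the plus strand for Plxna2, chr6:115955636-115955643 on the minus strand for Plxnd1 and chr16:73893543-73893550 on the minus strand for Robo2. Epha5 has 2 such sites and Unc5d has 1, so that 6 of 65 members carry a match (9.23%), against 1834 of 20993 genes with an annotated 3′ UTR (8.74%).

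In endothelial-like cells no tested member with a site passed between KO and WT, and members with a site were not tested as a set. Efna1 held 107 and 122 CPM in KO and 113 and 114 CPM in WT, Plxna2 14.5 and 16.6 CPM in KO and 15.4 and 15.95 CPM in WT, and Plxnd1 255 and 288 CPM in KO and 332 and 265 CPM in WT. The groups overlap for all of these. Of the 5 members with a site that could be tested, 3 had a positive and 2 a negative log2 difference, with a median of 0.01, and of the 49 others 19 had a positive and 30 a negative one, with a median of -0.06.

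No member passed between KO and WT in any of 7 classes by edgeR with low-count genes left out and all 4 libraries in the fit (adjusted p of at least 0.9997 throughout). Other settings called members in neural-like cells, as given with that class. In endothelial-like cells 54 members were tested, and 0.15% of all genes passed. DESeq2 called no member either, and none had an unadjusted p under 0.05 there, against 1.67% of all genes. Efnb2 held 55.8 and 69.5 CPM in KO and 62.7 and 75.1 CPM in WT (log2 difference -0.12 ± 0.16), and Ephb4 52.0 and 50.6 CPM in KO and 68.3 and 49.2 CPM in WT (-0.18 ± 0.17). The KO and WT ranges overlap for both. Robo4 held 44.7 and 57.9 CPM in KO and 74.9 and 56.9 CPM in WT (-0.34 ± 0.18), and Unc5b 35.9 and 45.4 CPM in KO and 38.1 and 46.1 CPM in WT (-0.04 ± 0.17). Both KO libraries lay above both WT libraries for 4 members and below for 6, where 19.7% of all genes lay apart, 7.31% above and 12.4% below. Those above include Robo3 (0.71 ± 0.42), Slit3 (0.26 ± 0.18) and Efna5 (0.16 ± 0.17), and those below include Ephb1 (-0.54 ± 0.34), Sema3a (-0.38 ± 0.26) and Sema4c (-0.22 ± 0.14).

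**Figure D5:**
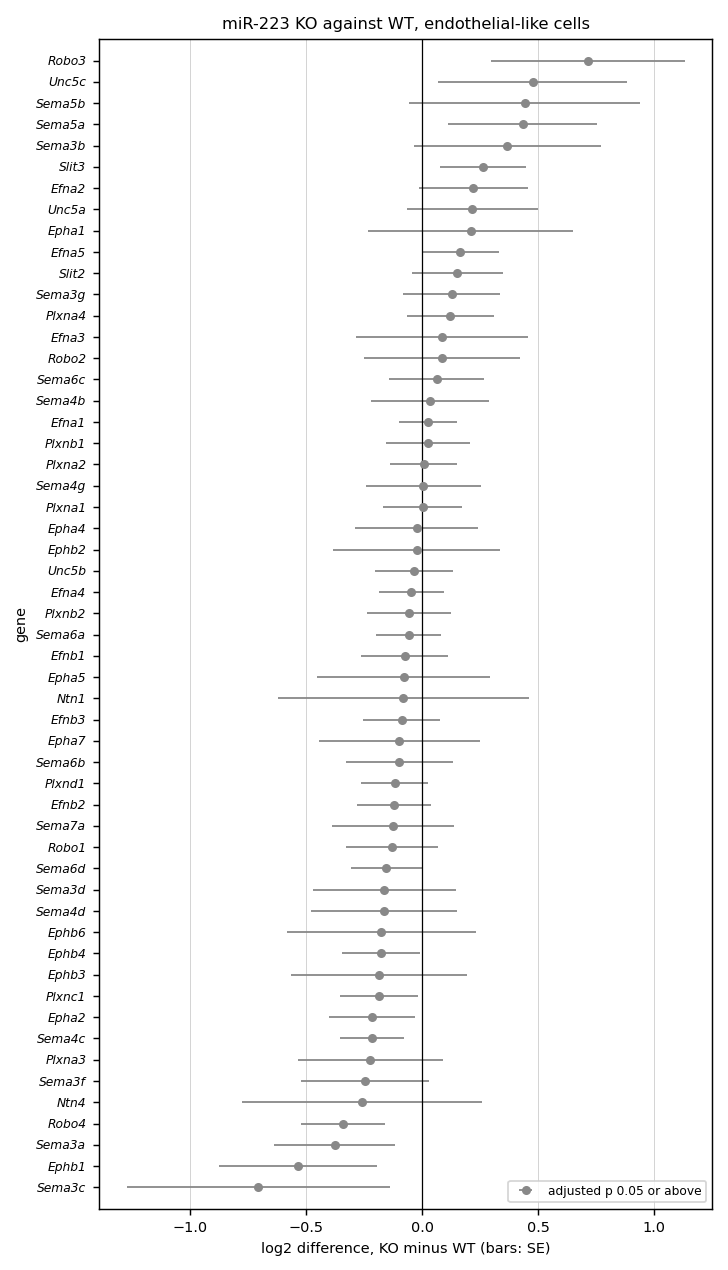
Log2 difference, KO minus WT, with its SE (horizontal axis) for the 54 members tested in endothelial-like cells (rows), from 2 libraries per genotype. The values run from -0.71 to 0.71 and no member has an adjusted p under 0.05.

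In arterial-like cells 35 members were tested and 3 had an unadjusted p under 0.05, against 2.65% of all genes, and 0.0272% of all genes passed the adjusted threshold. Both KO libraries lay below both WT libraries for 18 members and above for 3, where 27.4% of all genes lay apart, 16% below and 11.4% above. The median log2 difference was -0.20 over the tested members and -0.0029 over all genes. Efnb2, with the levels given above, was among the 18 (log2 difference -0.28 ± 0.14, unadjusted p = 0.063). Sema4c held 14.3 and 17.6 CPM in KO and 24.8 and 24.3 CPM in WT (-0.59 ± 0.22, unadjusted p = 0.021), and Epha5, which carries 2 miR-223 sites, 2.16 and 2.82 CPM in KO and 3.82 and 5.93 CPM in WT (-1.01 ± 0.42, unadjusted p = 0.032). Plxna2, with 1 site, was among the 3 above (0.37 ± 0.17, unadjusted p = 0.0496). None of these passed the adjustment. The 12 pan-endothelial markers summed to 6292 and 6543 CPM in KO arterial-like cells and 7351 and 6508 CPM in WT, and the 12 arterial markers to 3217 and 3016 CPM in KO and 3432 and 3081 CPM in WT. The part of these in the members' values was not tested.

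The direct test of whether the KO to WT difference itself differed between arterial-like cells and cluster 7 called none of 40 members, and 0.0175% of all genes passed. By edgeR 3 of the 40 members had an unadjusted p under 0.05, against 4.41% of all genes, and DESeq2 called none. Without KO replicate 2, which leaves a single KO library that is assumed to vary like the WT libraries, Unc5b passed (1.35, adjusted p = 0.038). It held 3.51 and 8.13 CPM in KO and 13.7 and 8.58 CPM in WT in cluster 7, so KO replicate 1 was the low library.

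In cluster 7 alone, 32 members were tested, none of them with an unadjusted p under 0.05 (1.64% of all genes had one), and 0.0185% of all genes passed. The largest named difference was that of Unc5b (-0.77 ± 0.36). Sprouting-like cells (35 tested, 0.0414% of all genes passing) and neural plexus endothelial-like cells (37 tested, 0.0333%) also gave no member at an unadjusted p under 0.05, where 1.35% and 1.48% of all genes had one. In mesenchymal-like cells (52 tested, 0.00828% of all genes passing) 2 members had one, as did 2.17% of all genes. Plxna2, which carries a miR-223 site, held 27.2 and 24.2 CPM in KO and 15.4 and 19.95 CPM in WT (0.59 ± 0.21). Plxnb1, a receptor of Sema4 ligands, held 5.94 and 8.85 CPM in KO and 13.4 and 10.1 CPM in WT (-0.69 ± 0.28). DESeq2 called no member in any of these classes.

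Neural-like cells gave 6 of 36 members at an unadjusted p under 0.05, against 2.39% of all genes. No member passed the adjusted threshold by edgeR or DESeq2, and 0.0111% of all genes did by edgeR. Slit2 (0.97 ± 0.28) and Slit3 (1.31 ± 0.44, 15.03 and 15.3 CPM in KO and 6.36 and 6.12 CPM in WT) were higher in both KO libraries than in both WT libraries. Robo3 held 10.0 and 27.6 CPM in KO and 39.0 and 41.8 CPM in WT (-1.19 ± 0.43). Without KO replicate 2, Slit2 passed at 1.04 (adjusted p = 0.011) and Robo3 at -1.95 (adjusted p = 0.00020), which made 1 member higher and 4 lower. Without WT replicate 1 Slit2 passed at 1.56 (adjusted p = 0.0071), and without the low-count filter at 1.003 (adjusted p = 0.010). Slit2 and Robo3 were also the genes given above as higher in cluster 21. Within that cluster Slit2 held 292 and 196 CPM in KO and 199 and 51.7 CPM in WT, and Robo3 21.9 and 53.1 CPM in KO and 104 and 101 CPM in WT. Cluster 21 held 81 and 41 cells of the KO libraries and 19 and 28 of the WT libraries, and cluster 20 held 108 and 39 in KO and 19 and 32 in WT. Ephb4 held 7.66 and 8.72 CPM in KO neural-like cells and 21.8 and 14.3 CPM in WT (-1.12 ± 0.41). Pan-endothelial markers summed to 163 and 550 CPM in KO neural-like cells and to 524 and 631 CPM in WT, and the part of endothelial RNA in these values was not tested.

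Over the 7 classes, 5 of the 22 members tested in every class kept 1 sign of the KO to WT difference in all of them, as did 17.6% of the 8319 genes tested in every class. The 5 are named after their values were seen. Slit3 was positive throughout, and Robo4, Plxnd1, Ephb4 and Efnb3 were negative throughout. The classes come from the same 4 libraries, and endothelial-like cells include most of the others, so these counts are not independent.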

How the data were processed

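Droplet 3′ single-cell RNA libraries were made from 2 KO and 2 WT samples with 10x chemistry, per the labels' protocols. The authors deposited UMI counts per gene and cell barcode, filtered to cells, and the matrices were written by Cell Ranger 3.1.0, per the file headers. Seurat 4 is named in the submitters' processing notes without a role. The sources used here do not give the authors' genome build, so no level was tied to a coordinate.

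The members and gene lists were chosen with earlier results of these data known. Cells needed 1000 or more detected genes, and a mitochondrial share of UMIs below 10%. Doublets, scored against simulated pairs of cells and taken at 0.8% per 1000 barcodes, were removed (3.53% to 10.1% of a library). Counts were scaled to 10000 UMIs per cell, 2000 variable genes without members or pathway genes gave 40 principal components, and Leiden clustering at resolution 1 gave 28 clusters (Python 3.11.15, scikit-learn 1.9.0, leidenalg 0.10.2). Classes were named from listed markers, with limits set after the clusters were seen, and 813 cells stayed unnamed.

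Raw UMIs were summed per library and class (at least 20 cells each for a test) and tested with edgeR 4.0.16 (R 4.3.3): TMM scaling, low-count filter, robust quasi-likelihood test, Benjamini-Hochberg adjustment over all genes tested and a threshold of 0.05. Class comparisons had library as block and KO against WT had no block. The SE was derived from the fitted fold change and its test. CPM are a gene's UMIs per 1000000 UMIs of the class sum. As 3′ counts are not per length, levels of different genes were not compared. Sums drawn from many cells of 1 library are 1 replicate, and intervals cover counting error only.

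Genes named are, for class comparisons, up to 10 members in each direction with the smallest adjusted p and the same sign in all 4 libraries. For KO against WT they are up to 3 in each direction with the smallest unadjusted p and both KO libraries beyond both WT libraries. Efnb2, Ephb4, Unc5b, Plxnd1, Robo4, Slit2, Slit3, Sema3f, Sema3g, Sema6a, Ntn1 and Epha4 were always eligible. The alternatives were DESeq2 1.42.0, its size factors in edgeR, no low-count filter, thinned sums, doublets kept, clusters built with the members, 1 fit over all classes, a replicate block and leaving out each library. The test scripts were tested on simulated data. Promoter and microRNA sequences are from RefSeq tables of GRCm38.p6 and 3′ UTRs from GENCODE M21 on GRCm38.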

Additional observations from a re-analysis of the deposited data

How the results depend on the processing

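Of the class comparison values recomputed under the alternatives, 1775 kept their direction and their side of the threshold, 45 lost the call, 8 gained one and 15 turned round. For KO minus WT, 525 kept both, 6 gained a call and 15 turned round. Between arterial-like cells and cluster 7, the log2 difference ranged over all alternatives from 3.03 to 3.36 for Efnb2, from 3.71 to 4.65 for Unc5b and from -0.44 to -0.30 for Ephb4.

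The count of members lower in arterial-like cells than in other endothelial-like cells was 14, and 5 in 1 fit over all classes, 8 with thinned sums and 7 to 13 with each library left out. In sprouting-like cells it was 24, and 14 in 1 fit. That fit weights the other classes equally, so what a class is set against differs by construction. In arterial-like cells against the rest it gave Sema6d 0.031, Ephb4 -0.016, Plxnd1 0.068 and Robo4 0.27, and in sprouting-like cells Sema3g 0.49, Unc5b 0.44 and Sema3f -0.021. In arterial-like cells the main fit had called Sema6d, Plxnd1 and Robo4 lower, and 1 fit called Robo4 higher (edgeR, adjusted p = 0.032). The lower call of Robo4 was also lost with DESeq2 (-0.14, adjusted p = 0.12) and with clusters built with members (-0.014, edgeR, adjusted p = 0.84). Ephb4 in arterial-like cells against the rest was also -0.048 without the filter, -0.015 with thinned sums, and -0.022 to 0.052 with each library left out. Sema6a there was 0.00040, and Robo4 in neural plexus endothelial-like cells -0.024, when clusters were built with members. That Robo4 value ran from -0.036 to 0.069 with each library left out. With doublets kept, Efnb2 in sprouting-like cells was 0.021.

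The sign of small KO minus WT differences in endothelial-like cells rested on single libraries. With each library left out, Efnb2 ran from -0.29 to 0.032, Ephb4 from -0.39 to 0.067, Unc5b from -0.22 to 0.13, Plxnd1 from -0.26 to 0.045, Slit2 from -0.031 to 0.38, Sema3f from -0.62 to 0.21, Sema3g from -0.14 to 0.48, Sema6a from -0.18 to 0.055, Ntn1 from -0.55 to 0.33 and Epha4 from -0.34 to 0.32. Epha4 was 0.027 with thinned sums. In neural-like cells no member passed in either direction, and 1 was higher without the filter (Slit2, 1.003). With 1 library left out, 0 to 1 members were higher and 0 to 4 lower, and for the interaction 0 to 1 were higher. A lone KO or WT library in these fits is assumed to vary like the others. The cause of these changes was not tested.

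KO and WT libraries share replicate numbers. Differences between replicates 1 and 2 correlated across 14646 genes between the genotypes (r = 0.47), but there are only 2 pairs and the labels state no pairing. With the replicate block, 1 member was higher (Slit2, 0.996, adjusted p = 0.00010) and 1 lower (Robo3, -1.24, adjusted p = 0.010) in neural-like cells, and no other member was called in a KO comparison. Having 2 libraries per genotype, and 38 to 189 neural-like cells in each, limits what can be called.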
